A study of Homo sapiens with 8 samples.

Results

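The shared effect of the LOXHD1 enhancer knockdown is the part of the eKD2 response that moved gene expression the same way in 2 Ewing sarcoma cell lines, RD-ES and SK-N-MC. It was measured over all 8 of the 8 RNA-seq libraries of the series, with 4 eKD2 libraries set against 4 control libraries, the cell line as a block and 1 common treatment term. The 4 groups were RD-ES control, RD-ES eKD2, SK-N-MC control and SK-N-MC eKD2, with 2 biological duplicates each. By the labels, eKD2 cells were infected with a lentivirus for dCas9-KRAB directed to the GGAA repeat of the LOXHD1 enhancer, and control cells with an empty dCas9-KRAB virus (cas9). The paper instead names the controls parental cells. dCas9-KRAB joins a Cas9 that can no longer cut DNA to a repressor domain. By the labels every group shared a multiplicity of infection of 10, 3 days of puromycin at 1 µg/ml and harvest within 5 passages. The arms differ in the guide, in LOXHD1, in the level of ZNF10 (given below) and, if the controls were parental cells, in infection. The eKD2 arm stands for 1 guide, so an effect of LOXHD1, of the guide and of the construct cannot be told apart.

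Of the 60332 genes in the deposited table, 15175 reached a mean level of 1 FPKM across libraries and were tested (FPKM, fragments per kilobase of transcript scaled to library size, is a level per length). A gene was called when the common change passed an adjusted p of 0.05 in limma and had the same sign in each line. By this rule 5 genes were called, which is 0.0329% of those tested. LOXHD1 fell, and ZNF10, MIR3936, ASS1 and EIF1 rose. ASS1, the enzyme that joins citrulline and aspartate in the synthesis of arginine, was about 2-fold higher in eKD2 of either line. Below that threshold, gene lists were described, which were chosen with earlier results of these data known. Counts are of members at an unadjusted limma p under 0.05 with the same sign in each line. Of 28 genes of sterol synthesis, 18 were lower in eKD2 (64.3%), against 4.11% of all genes tested. By line alone, 3 of the 28 were lower at that p in RD-ES, against 3.79% of all genes, and 19 in SK-N-MC, against 7.29%. In each of 5 lists of amino acid supply, with 13 to 24 tested genes, 3 to 5 members (15% to 23.1%) were higher, against 5.67%. Of these 5 lists, the arginine, asparagine and proline list also held 2 lower members and the synthetase list 1, and the amino acid response list had median log2 changes that differed in sign, 0.92 (RD-ES) and -0.09 (SK-N-MC).

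Cells short of amino acids or under other stresses phosphorylate the initiation factor eIF2. This slows most protein synthesis and favours translation of ATF4, a transcription factor that raises genes for amino acid synthesis, uptake and tRNA charging. TRIB3, a pseudokinase, and ASNS, asparagine synthetase, are well known targets of ATF4. Sterol synthesis is set by SREBP2 (gene SREBF2), a membrane-bound factor that is released when cholesterol is low and that switches on HMGCS1 and other enzymes that make cholesterol. Ewing sarcoma cells depend on the fusion factor EWSR1::FLI1, which uses GGAA repeats such as the LOXHD1 enhancer.

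The sequences of 3 loci named in the results below are given here as a description. MIR3936 is a miRNA gene of 110 bases on the minus strand at chr5:131701182-131701291 of GRCh37, within the span of the non-coding gene MIR3936HG. It is shown with the mature miRNA in capitals, and hsa-miR-3936 itself (RefSeq) is shown as RNA with its seed in capitals.
MIR3936 gene: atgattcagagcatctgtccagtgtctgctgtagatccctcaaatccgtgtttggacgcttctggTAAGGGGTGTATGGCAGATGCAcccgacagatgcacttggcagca
hsa-miR-3936: uAAGGGGUguauggcagaugca
The promoters of ASS1 and TRIB3 are shown over the 120 bases before the start, on the plus strand, at chr9:133320228-133320347 for ASS1 and chr20:361867-361986 for TRIB3 (RefSeq promoters matched exactly to GRCh37). For TRIB3 the start is that of RefSeq, which lies inside the longer gene span of the annotation given with its values. They were searched over 300 bases each, on both strands, for TGATGNAA and TTGCATCA, short forms of the site that ATF4 binds with C/EBP partners, for GGAAGGAA, and, after the sequences had been seen, for CACGTG, the E-box that MYC binds. The capitals mark a match.
ASS1 promoter: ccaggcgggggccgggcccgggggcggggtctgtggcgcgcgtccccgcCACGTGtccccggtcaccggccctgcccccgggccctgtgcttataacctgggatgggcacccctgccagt
TRIB3 promoter: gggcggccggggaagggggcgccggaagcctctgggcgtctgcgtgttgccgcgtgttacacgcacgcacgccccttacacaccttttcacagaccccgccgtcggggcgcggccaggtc
ASS1 held CACGTG at base -71 from its start and no match to the other letters, and TRIB3 held no match to any of them in its 300 bases. Among 35116 RefSeq promoters of the same length, CACGTG was present in 7.26%, TGATGNAA in 3.62% (TTGCATCA, a part of these, in 0.866%) and GGAAGGAA in 3.67%. A match is a description of letters and not of binding.

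Read numbers are not part of the table, so the depth behind each value is unknown. From the steps of low FPKM values, the depth relative to RD-ES control replicate 1 was estimated between 0.578 (RD-ES eKD2 replicate 1) and 2.319 (SK-N-MC control replicate 1), which is rough, since 20.0% to 34.2% of the low genes of a library shared the ratio. Replicates correlated with r from 0.937 to 0.945 across genes (genes do not count as replicates). The 10 Ewing sarcoma markers were all above the filter, with CD99 at 201 to 586 FPKM and NKX2-2 at 24.2 to 30.7 FPKM, and their summed level was 1302 to 1644 FPKM in the RD-ES libraries and 1130 to 1292 FPKM in the SK-N-MC libraries. Of 19 markers of other cell types, 18 were in the table and 6 passed the filter, with a summed level of 44.9 to 54.6 FPKM in RD-ES and 255 to 267 FPKM in SK-N-MC. KRT5, CD3E, HBB and MYOG, which mark other epithelial, blood and muscle cells, were listed at 0 in every library. RD-ES eKD2 replicate 1, the shallowest library, held the epithelial genes CDH1 at 3.50 FPKM and KRT8 at 8.24 FPKM, against at most 0.168 and 2.13 FPKM in the other libraries. The part of this in the results was not tested. Without this library the number of called genes was again 5, and 4 of the main calls, ASS1 included, were among them.

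LOXHD1 (ENSG00000167210.16_2, chr18:44056935-44237183 of GRCh37, minus strand), the stereociliary gene whose enhancer was targeted, was measured first. In RD-ES its control libraries held 21.4 and 21.2 FPKM and its eKD2 libraries 1.04 and 1.02 FPKM. In SK-N-MC they held 159 and 169 FPKM against 11 and 12 FPKM. The groups were far apart in each line, and the common change was -3.59 on the log2(FPKM + 1) scale (standard error 0.0757, limma adjusted p = 4.1e-06). ZNF10 (ENSG00000256223.5_3, chr12:133707161-133736051, plus strand), a zinc finger gene whose KRAB domain is the one commonly built into dCas9-KRAB vectors, was at 8.89 and 9.68 FPKM in RD-ES control and 56.1 and 49.0 FPKM in eKD2. In SK-N-MC its control values were 7.65 and 10.2 FPKM and its eKD2 values 65.1 and 59.6 FPKM (common log2 change 2.53, standard error 0.113, limma adjusted p = 4.4e-04). Reads of the gene and reads of a construct that carries its sequence cannot be told apart in these values. By the labels the controls carried a dCas9-KRAB virus too, and why ZNF10 differed between the arms was not tested.

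ASS1 (ENSG00000130707.17_2, chr9:133320348-133376661, plus strand), the argininosuccinate synthase, stood at 5.86 and 6.39 FPKM in the RD-ES controls against 11.9 and 13.5 FPKM under eKD2. In SK-N-MC, where the level was far higher, it stood at 136 and 156 FPKM in the controls against 314 and 342 FPKM under eKD2. Every eKD2 library was above every control library of its line. The group means were 6.12 ± 0.378 and 12.7 ± 1.12 FPKM in RD-ES and 146 ± 14.4 and 328 ± 20.3 FPKM in SK-N-MC (SD, n = 2 each), ratios of 2.07 and 2.25. The common log2 change was 1.05 (standard error 0.0841, limma adjusted p = 0.0137), and the test of a difference between RD-ES and SK-N-MC did not pass (log2 difference 0.23, standard error 0.150, limma adjusted p = 0.58). The call did not hold without every library. Without 1 library at a time the log2 change stayed between 0.99 and 1.11, and the limma adjusted p rose to 0.0675 without RD-ES control replicate 1, 0.123 without RD-ES eKD2 replicate 2, 0.0810 without SK-N-MC control replicate 2, 0.128 without SK-N-MC eKD2 replicate 1 and 0.0804 without SK-N-MC eKD2 replicate 2.

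EIF1 (ENSG00000173812.10_2, chr17:39845137-39848920, plus strand), the factor by which the ribosome chooses the start codon, was at 424 and 429 FPKM in RD-ES control and 551 and 544 FPKM in RD-ES eKD2. In SK-N-MC the controls held 1278 and 1275 FPKM and the eKD2 libraries 1559 and 1621 FPKM. The change was small and close to equal, with ratios of 1.29 and 1.25 and a common log2 change of 0.34 (standard error 0.0331, limma adjusted p = 0.0441). It was called in 2 of 18 alternative analyses and in none of the 8 without 1 library, where the limma adjusted p lay between 0.163 and 0.279 and the log2 change between 0.33 and 0.35.

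MIR3936 (ENSG00000263597.1), shown above, was listed at 0 in all 4 control libraries. The eKD2 libraries held 78.4 and 40.6 FPKM in RD-ES, and 24.9 and 47.0 FPKM in SK-N-MC. The common change passed the threshold (limma adjusted p = 8.0e-04), and no fold is given against a group at 0. At 110 bases the gene is short against reads of 75 bases from a poly-A library, where a small number of reads gives a high FPKM. Its host transcript and a neighbouring gene showed no such step in the common change. MIR3936HG, its host transcript (common log2 change 0.16, limma adjusted p = 0.82), ranged from 1.67 to 4.08 FPKM in RD-ES control and from 3.17 to 3.39 FPKM in RD-ES eKD2. SLC22A5, a carnitine transporter that begins just beyond it, gave a common log2 change of -0.23 (limma adjusted p = 0.71).

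**Figure D1:**
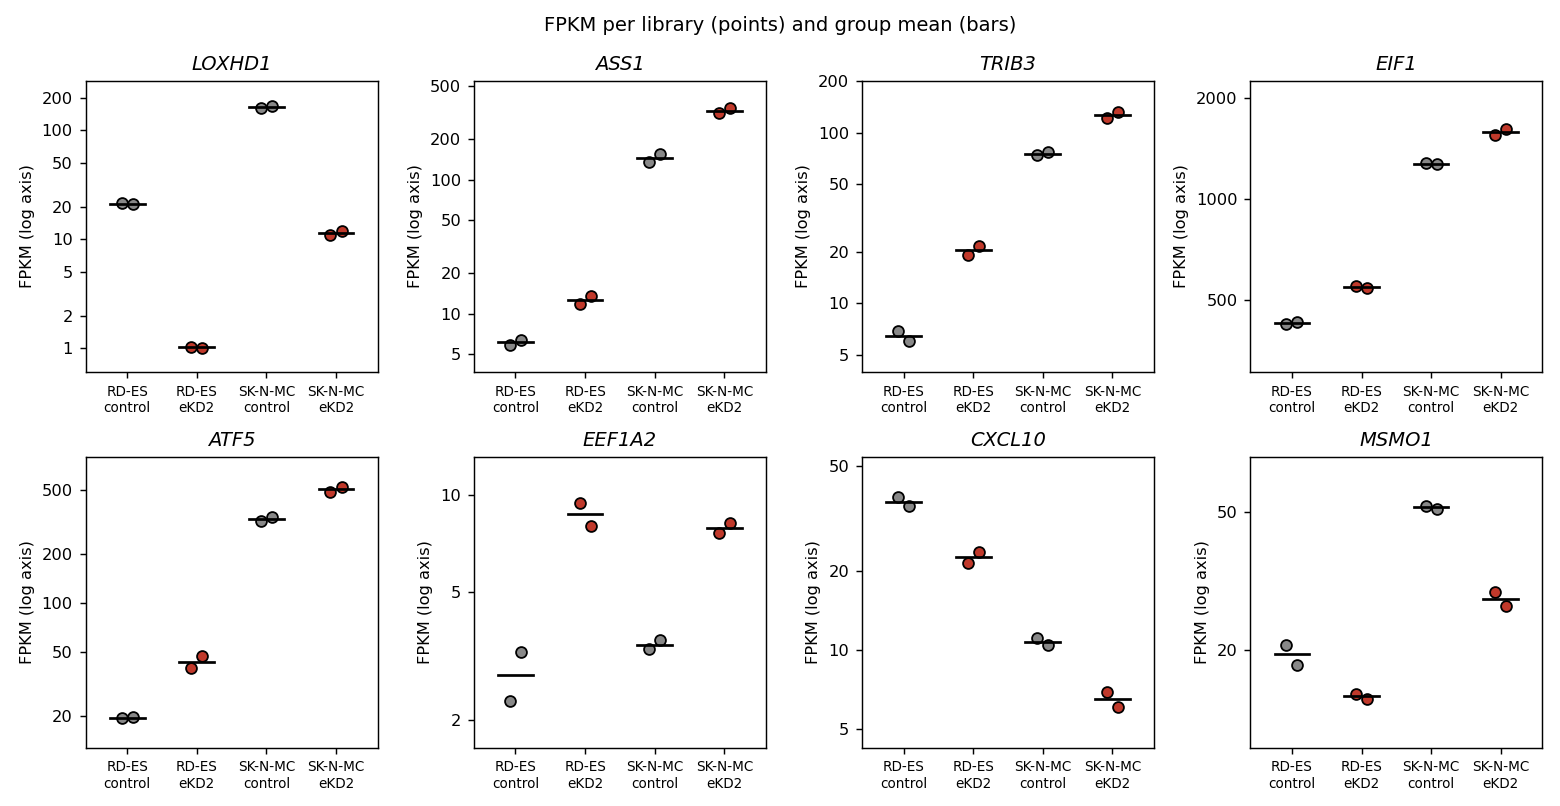
FPKM on a log axis in each library (points, 2 per group) with the group mean (bar), for LOXHD1, ASS1, TRIB3, EIF1, ATF5, EEF1A2, CXCL10 and MSMO1, with control in grey and eKD2 in red. In all 8 genes the eKD2 and control points of a line do not overlap, and the direction is the same in RD-ES and SK-N-MC. The choice of EEF1A2, ATF5, CXCL10 and MSMO1 required both, and the calls of LOXHD1, ASS1 and EIF1 required the same direction. ASS1, TRIB3 and ATF5 sit far lower in RD-ES.

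At an unadjusted p under 0.05 with the same sign in each line, 861 genes were higher in eKD2 (5.67%) and 623 were lower (4.11%). Libraries of eKD2 and control did not overlap in either line, in the same direction, for 856 higher genes (5.64%) and 609 lower genes (4.01%). In all, 47.6% of all tested genes had the same sign in each line. The split of the 1484 genes moved with the scaling of the libraries: 58.0% were higher as deposited, 39.7% of 1580 with all library medians made equal and 48.0% of 1457 with quantile normalization. The exact permutation test of 1 gene, with labels exchanged within each line, has 36 arrangements and gives a two-sided p of 0.0556 at the smallest, which LOXHD1, ASS1, EIF1 and TRIB3 each gave.

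The genes with the smallest p-values after the called ones were taken next, the 15 higher and the 15 lower of at least 200 bases whose libraries did not overlap in either line. This choice was made after their values were seen. EEF1A2, a translation elongation factor usually found in muscle and neurons, was at 2.28 and 3.24 FPKM in RD-ES control and 9.41 and 8.0 FPKM in eKD2, and at 3.32 and 3.53 FPKM in SK-N-MC control and 7.59 and 8.16 FPKM in eKD2. Its common log2 change was 1.19 (standard error 0.126, limma adjusted p = 0.0542), just outside the threshold. CYP2R1, a vitamin D 25-hydroxylase, was at 20.3 and 18.9 FPKM in RD-ES control and 32.9 and 30.0 FPKM in eKD2, and at 43.9 and 45.1 FPKM in SK-N-MC control and 63.8 and 61.4 FPKM in eKD2 (common log2 change 0.57, limma adjusted p = 0.0737). With these 2 genes and CXCL10, 8 genes passed a looser adjusted p of 0.1.

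Further members of the higher set had an adjusted p between 0.16 and 0.22. APOE, the lipid carrier, had ratios of 1.33 (RD-ES) and 1.47 (SK-N-MC) (common log2 change 0.46, limma adjusted p = 0.16). PTX3, a secreted pattern recognition protein, was low in every library, at 2.34 and 2.60 FPKM against 4.66 and 5.14 FPKM in RD-ES and at 0.69 and 0.48 FPKM against 2.66 and 2.52 FPKM in SK-N-MC (common log2 change 0.98). ESRP1, an epithelial splicing regulator, was at 2.33 and 2.23 FPKM in RD-ES control and 4.21 and 3.6 FPKM in eKD2. In SK-N-MC it went from 31.6 and 29.5 FPKM to 70.1 and 72.4 FPKM (common log2 change 0.89, limma adjusted p = 0.218). Of the same set, UNKL, RBP7, PCID2 and KIZ had common log2 changes of 0.39 to 0.55.

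CXCL10, an interferon-induced chemokine, led the lower set. It was at 38.0 and 35.1 FPKM in RD-ES control and 21.5 and 23.6 FPKM in eKD2, and at 11.1 and 10.5 FPKM in SK-N-MC control and 6.93 and 6.07 FPKM in eKD2. The ratios, 0.617 and 0.604, were close to equal, and the common log2 change was -0.66 (standard error 0.0694, limma adjusted p = 0.0542). It was not on the list of interferon-stimulated genes, of which 22 were tested. In that list 1 was higher (RSAD2, 4.55%) and 2 were lower (OAS3 and IRF7, 9.09%) at an unadjusted p under 0.05, against 5.67% and 4.11% of all genes tested. HOXC6, a homeobox factor, had a common log2 change of -0.43, OLFML3, a secreted matrix protein, of -0.41, and RNF169, a ubiquitin ligase of the DNA break response, of -0.49 (limma adjusted p = 0.22 for each). The others were ACLY, MSMO1 and EBP, which belong to lipid synthesis, the actin-binding CNN2, the LIM protein CSRP1, the peroxiredoxin PRDX1, the cyclin CCNB1, the proteasome subunit PSMD1, the protease ADAMTS1, the thioesterase ACOT11 and AC026464.3, with common log2 changes from -0.61 to -0.22.

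Among 24 tested genes of the amino acid response and ATF4 targets, 5 were higher (20.8%, against 5.67% of all genes) at an unadjusted p under 0.05 with the same sign in each line. In the list 0 were lower, against 4.11%, and none passed the adjusted threshold for the common change (limma). TRIB3 (ENSG00000101255.10_3, chr20:343479-378203, plus strand) was at 6.89 and 6.02 FPKM in RD-ES control and 19.2 and 21.8 FPKM in eKD2, and at 73.7 and 77.4 FPKM in SK-N-MC control and 122 and 132 FPKM in eKD2. Every eKD2 library was again above the controls of its line, with ratios of 3.18 and 1.68. The common log2 change was 1.14 (standard error 0.162, limma adjusted p = 0.206), and the change was larger in RD-ES than in SK-N-MC without passing the test of that difference (log2 difference -0.79, standard error 0.141, limma adjusted p = 0.148). ATF5, a transcription factor related to ATF4, was at 19.5 and 19.6 FPKM against 39.3 and 46.7 FPKM in RD-ES and at 322 and 342 FPKM against 483 and 523 FPKM in SK-N-MC (common log2 change 0.85, limma adjusted p = 0.164).

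The other 3 of the 5 were CEBPG, a partner of ATF4 (common log2 change 0.28), PPP1R15A, the subunit that directs eIF2 dephosphorylation (0.48), and GDF15, a stress hormone (1.01), with limma adjusted p-values from 0.43 to 0.50. PPP1R15A was at 8.28 and 9.26 FPKM against 16.4 and 18.5 FPKM in RD-ES and at 46.7 and 47.3 FPKM against 46.2 and 51.0 FPKM in SK-N-MC, where the libraries overlapped. ATF4 itself was at 192 and 201 FPKM in RD-ES control and 232 in both eKD2 libraries, and at 435 and 462 FPKM in SK-N-MC control and 414 and 445 FPKM in eKD2 (common log2 change 0.09, limma adjusted p = 0.71). The count of 5 fell to 2 without RD-ES control replicate 1, without RD-ES control replicate 2 or without RD-ES eKD2 replicate 1, and to 3 without SK-N-MC eKD2 replicate 2.

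The list did not share a direction across the lines. Its median log2 change was 0.92 for RD-ES but -0.09 for SK-N-MC (all genes tested 0.03 and -0.005), and 9 of the 24 had the same sign in each line. In RD-ES 11 of the 24 rose at an adjusted p under 0.05 in limma, against 0.264% of all genes tested, and 0 fell. In SK-N-MC 0 passed it in limma, where 0.323% of all genes did in either direction. At an unadjusted p under 0.05, 2 of the 24 were higher in SK-N-MC, against 5.71% of all genes, and 6 were lower, against 7.29%. The change differed between the lines at an adjusted p under 0.05 for 7 of the 24, against 0.244% of all genes tested (37 genes). CHAC1, which breaks down glutathione, was at 3.02 and 3.63 FPKM in RD-ES control and 44.3 and 56.3 FPKM in eKD2, but at 96.9 and 107 FPKM in SK-N-MC control and 50 and 57.1 FPKM in eKD2. Its eKD2 levels were thus near each other in the lines, from opposite sides. The log2 difference, SK-N-MC minus RD-ES, was -4.48 (standard error 0.206, limma adjusted p = 0.0012). SESN2, CTH, DDIT4, ATF3, DDIT3 and STC2 differed in the same direction, but the STC2 call was lost without any 1 library other than the RD-ES eKD2 libraries (limma adjusted p from 0.121 to 0.185).

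**Figure D2:**
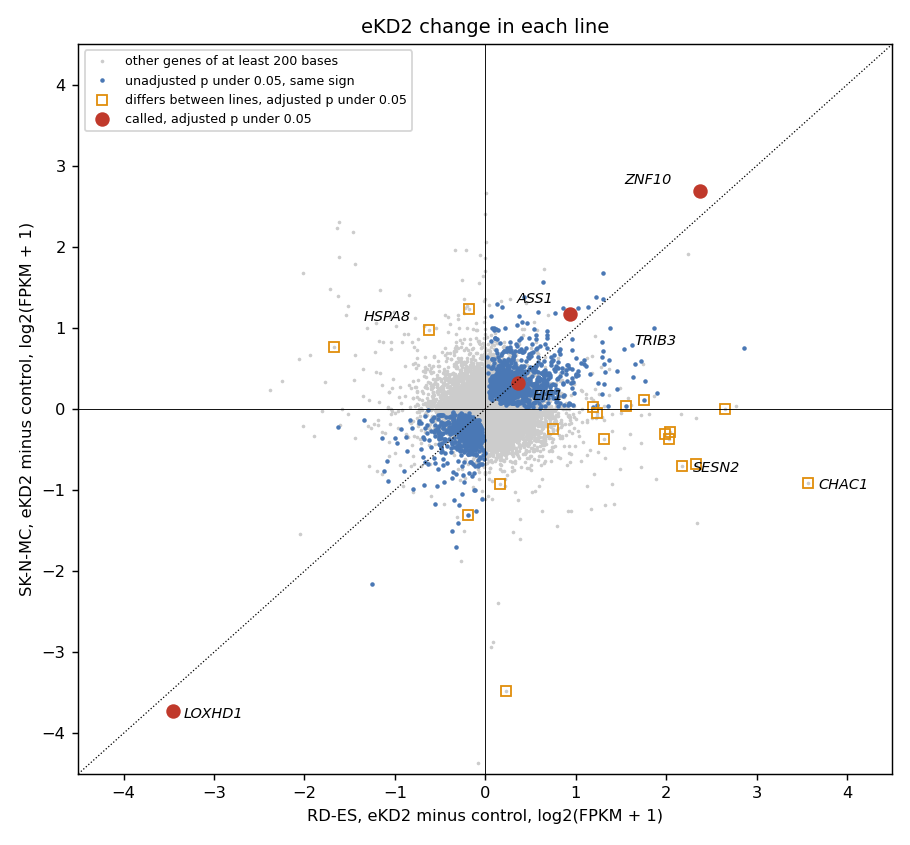
The eKD2 minus control difference in log2(FPKM + 1) in RD-ES (x axis) and in SK-N-MC (y axis) for the tested genes of at least 200 bases, with the 4 called genes of that length in red, genes at an unadjusted p under 0.05 and the same sign in blue, and genes that differ between the lines at an adjusted p under 0.05 as open squares. LOXHD1, ZNF10, ASS1 and EIF1 lie near the dotted line of equal change, whereas CHAC1 and SESN2 lie to the right of it at 3.56 and 2.18 in RD-ES and -0.92 and -0.71 in SK-N-MC.

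The enzymes and carriers that supply amino acids were described next. Of 17 tested genes for arginine, asparagine and proline, ASS1 was called, 3 were higher at an unadjusted p under 0.05 (ASS1, ASNS and OAT) and 2 were lower (ALDH18A1 and GLUL). These are 17.6% and 11.8% of the list, against 5.67% and 4.11% of all genes tested. ASNS was at 56.1 and 62.9 FPKM against 147 and 138 FPKM in RD-ES and at 437 and 422 FPKM against 557 and 516 FPKM in SK-N-MC, so each line had its eKD2 libraries on top (common log2 change 0.79, standard error 0.181, limma adjusted p = 0.31). Its rise in RD-ES was 1.25 on the log2 scale (limma adjusted p = 0.0035), while SK-N-MC gave 0.32 (limma adjusted p = 0.21), and the difference was just outside the threshold (limma adjusted p = 0.056). GLUL, glutamine synthetase, had a common log2 change of -0.19, and ALDH18A1, which starts proline synthesis, of -0.24.

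Of 13 serine and one-carbon enzymes, PHGDH, PSAT1 and ALDH1L2 were higher at an unadjusted p under 0.05 (23.1%) and 0 were lower. By the same rule, 5.67% of all genes tested were higher and 4.11% lower. PHGDH, the first enzyme of serine synthesis, was at 411 and 412 FPKM against 461 and 442 FPKM in RD-ES and at 561 and 559 FPKM against 637 and 738 FPKM in SK-N-MC (common log2 change 0.21, limma adjusted p = 0.36). Of 20 cytosolic aminoacyl-tRNA synthetases, which load tRNAs, SARS, YARS and WARS were higher and HARS was lower. SARS, for serine, was at 147 and 140 FPKM against 208 and 213 FPKM in RD-ES and at 244 and 252 FPKM against 298 and 309 FPKM in SK-N-MC (common log2 change 0.42, standard error 0.0629, limma adjusted p = 0.218). Of 15 amino acid transporters, the 3 higher ones, SLC7A1, SLC7A2 and SLC7A3, all carry cationic amino acids such as arginine, and 0 were lower. Their common log2 changes were 0.25, 0.19 and 0.35, with limma adjusted p-values of 0.47, 0.35 and 0.36. SLC7A3 was at 9.24 and 9.97 FPKM against 10.5 and 13.4 FPKM in RD-ES and at 14.0 and 14.4 FPKM against 17.5 and 21.2 FPKM in SK-N-MC. None of these serine, synthetase and transporter genes passed the adjusted threshold (limma).

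Of the 28 sterol synthesis genes and SREBP targets, all of which were tested, 18 were lower at an unadjusted p under 0.05 with the same sign in each line (64.3%, against 4.11% of all genes tested). In the list 0 were higher, and none passed the adjusted threshold for the common change (limma). Libraries did not overlap in either line for 11 of the 28, all lower in eKD2, against 4.01% of all genes tested in that direction. The summed level of the list was 990 and 1015 FPKM in RD-ES control against 928 and 913 FPKM in eKD2. For SK-N-MC it was 1328 and 1380 FPKM against 841 and 845 FPKM. The step was thus small in RD-ES and large in SK-N-MC. The median log2 change of the list was -0.38 in common, -0.09 for RD-ES alone and -0.56 for SK-N-MC alone. The count of 18 was 11 without SK-N-MC control replicate 2, without SK-N-MC eKD2 replicate 1 or without SK-N-MC eKD2 replicate 2, and it was between 13 and 18 under the settings that kept all libraries.

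By step of the pathway, HMGCS1, which makes HMG-CoA, was at 23.2 and 21.9 FPKM against 21.0 and 15.6 FPKM in RD-ES and at 70.1 and 64.9 FPKM against 26.1 and 23.7 FPKM in SK-N-MC (common log2 change -0.85, standard error 0.227, limma adjusted p = 0.35). LSS, which closes the sterol rings, was one of the members with at least as large a change in RD-ES (57.0 and 53.9 FPKM against 33.5 and 41.6 FPKM) as in SK-N-MC (38.9 and 39.2 FPKM against 35.5 and 26.4 FPKM). MSMO1, a sterol demethylase, had the smallest p-value of the list, at 20.7 and 18.1 FPKM against 15 and 14.5 FPKM in RD-ES and 51.9 and 50.9 FPKM against 29.3 and 26.7 FPKM in SK-N-MC (common log2 change -0.61, standard error 0.110, limma adjusted p = 0.255). EBP, the sterol isomerase, had ratios of 0.831 and 0.771 (common log2 change -0.32, limma adjusted p = 0.255).

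The change of CYP51A1, a demethylase of lanosterol, differed between the lines, with log2 changes of 0.16 (RD-ES) and -0.93 (SK-N-MC) (log2 difference -1.10, limma adjusted p = 0.0382). That call was lost without any 1 library other than RD-ES control replicate 2 (limma adjusted p from 0.0598 to 0.144). Among regulators and uptake genes, SREBF2 was at 41.2 and 42.4 FPKM against 34.9 and 39.6 FPKM in RD-ES and 91.8 and 101 FPKM against 60.5 and 69.7 FPKM in SK-N-MC (common log2 change -0.36, limma adjusted p = 0.36). INSIG1, which holds SREBP in the endoplasmic reticulum, had log2 changes of -0.10 (RD-ES) and -1.26 (SK-N-MC). SREBF1 gave a common log2 change of -0.01.

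Of 10 fatty acid synthesis genes, ACLY, FASN, SCD, FADS1 and FADS2 were lower at an unadjusted p under 0.05 (50%, against 4.11% of all genes tested) and 0 were higher. None passed the adjusted threshold for the common change (limma). The count at the unadjusted p stayed at 5 without any 1 library. For all 5 the libraries did not overlap in either line, against 4.01% of all genes tested in that direction. Both rules draw on the same values: of the 623 genes lower at that p, 435 did not overlap in either line. ACLY, which makes acetyl-CoA from citrate, was at 108 in both RD-ES control libraries against 80.1 and 86.3 FPKM in eKD2, and at 117 and 130 FPKM against 87.2 and 99.7 FPKM in SK-N-MC, so its change was near equal in the lines (log2 -0.38 and -0.40, limma adjusted p of the common change 0.246). FASN, the fatty acid synthase, was at 129 and 146 FPKM against 106 and 113 FPKM in RD-ES and at 75.9 and 60.5 FPKM against 34.8 and 42.2 FPKM in SK-N-MC (common log2 change -0.56, limma adjusted p = 0.31). SCD, the stearoyl-CoA desaturase, had ratios of 0.902 (RD-ES) and 0.554 (SK-N-MC).

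**Figure D3:**
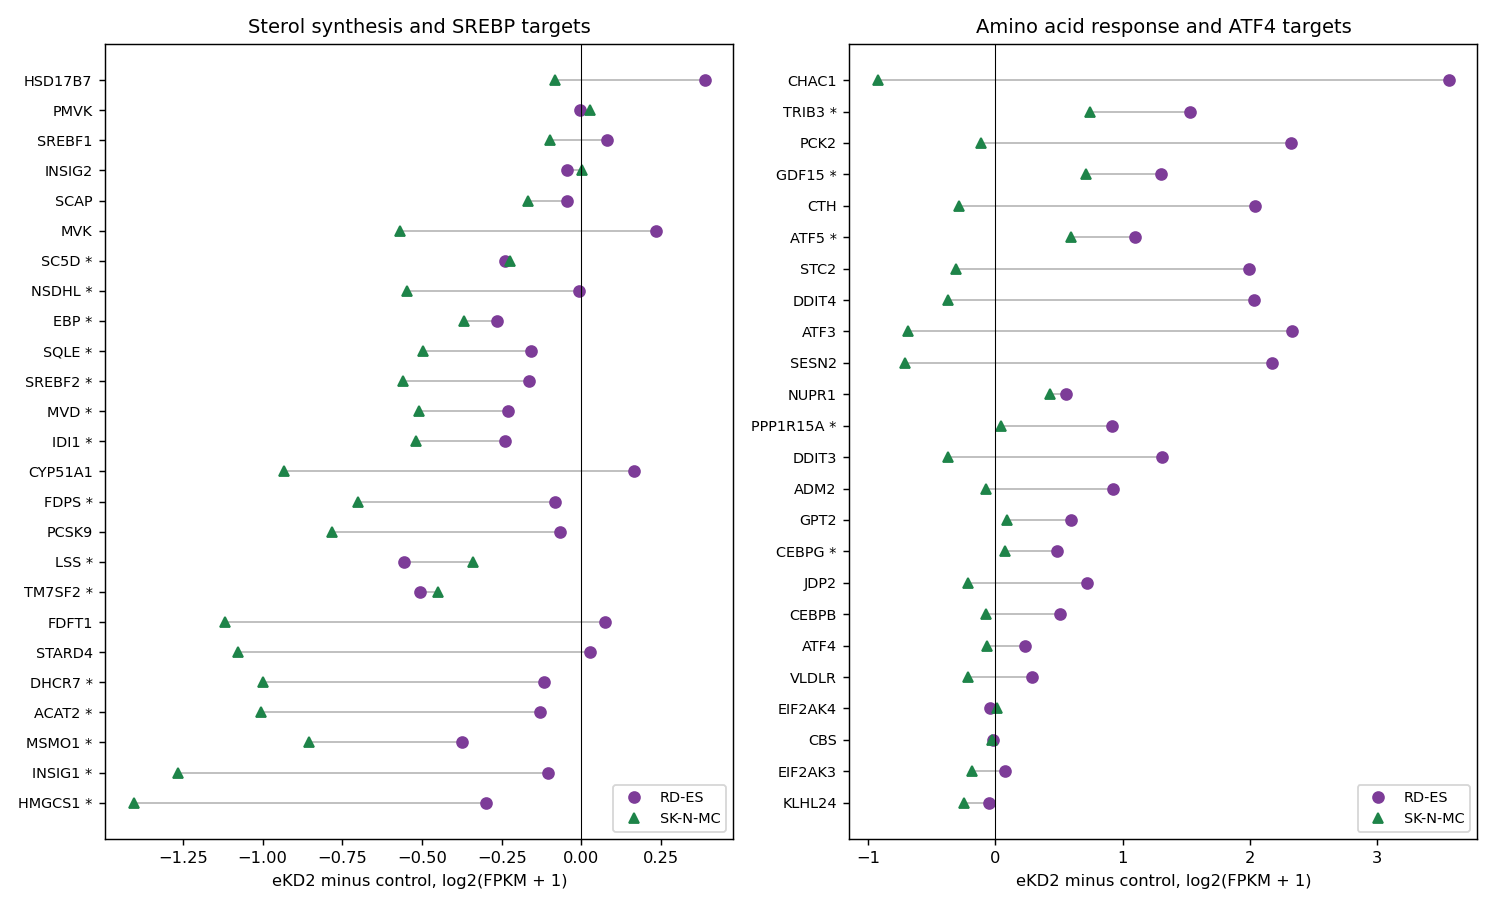
The eKD2 minus control difference in log2(FPKM + 1) of 25 of the 28 tested members of the sterol list (left) and of all 24 tested members of the amino acid response list (right), with RD-ES as circles and SK-N-MC as triangles and an asterisk at an unadjusted p under 0.05 with the same sign in each line. The sterol members with an asterisk lie left of 0 in each line, mostly further in SK-N-MC, whereas in the other list only TRIB3, GDF15, ATF5, PPP1R15A and CEBPG carry an asterisk and CHAC1 spans from -0.92 to 3.56.

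In the remaining lists no member other than LOXHD1 passed the adjusted threshold (limma). Of 25 tested hypoxia genes, 6 were lower at an unadjusted p under 0.05 with the same sign in each line. These are 24% of the list, against 4.11% of all genes tested. They were the glycolytic PGK1, ALDOA and LDHA, the glucose transporter SLC2A1, the prolyl hydroxylase EGLN1 and BNIP3. P4HA2 alone was higher (4%, against 5.67%). By line alone, 8 of the 25 were lower at that p in SK-N-MC, against 7.29% of all genes. In RD-ES 1 was lower, against 3.79%. PGK1 was at 1207 and 1191 FPKM against 1037 and 1091 FPKM in RD-ES and at 1083 and 1046 FPKM against 769 and 797 FPKM in SK-N-MC (common log2 change -0.31, standard error 0.0613, limma adjusted p = 0.285). By the shared rule, 8 of 30 S phase genes (26.7%) and 6 of 30 G2/M genes (20%) were lower, against 4.11% of all genes tested. In each list 0 were higher, against 5.67%. The common log2 changes of the 14 lower genes were from -0.30 to -0.11. The S phase counts were unequal between the lines. By line, 17 S phase members were lower at an unadjusted p under 0.05 in SK-N-MC, against 7.29% of all genes tested, with a median log2 change of -0.24. In RD-ES 2 were lower, against 3.79% of all genes tested, 1 was higher, against 8.49%, and the median was -0.02. CCNB1, the mitotic cyclin, was at 339 and 350 FPKM against 283 and 307 FPKM in RD-ES and at 269 and 254 FPKM against 212 and 223 FPKM in SK-N-MC. The S phase count of 8 was 5 without SK-N-MC control replicate 1 and 4 without SK-N-MC eKD2 replicate 1.

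Of 31 tested MYC-driven growth genes 4 were lower (NOP56, EIF4A1, NOLC1 and LDHA) and 0 higher, with a list median of -0.08 on the log2 scale. The 4 are 12.9% of the list, against 4.11% of all genes tested. Of 61 actin cytoskeleton genes 10 were lower (16.4%, against 4.11% of all genes) and 2, GSN and TMSB4X, were higher (3.28%, against 5.67%). FLNA, which crosslinks actin, was at 538 and 598 FPKM against 413 and 482 FPKM in RD-ES and at 391.6 and 404 FPKM against 280 and 341 FPKM in SK-N-MC (common log2 change -0.35, limma adjusted p = 0.31), and ACTB, cytoplasmic actin, had ratios of 0.823 and 0.856. Among 25 EWSR1::FLI1-activated genes, GLI1 and SOX2 were higher and STEAP1 and PAX7 were lower (8% each way). Among 12 repressed genes TNC was higher and CTGF lower (8.33% each way). These shares are near those of all genes tested, 5.67% higher and 4.11% lower. GLI1, a Hedgehog pathway factor, was at 5.60 and 5.25 FPKM against 13.3 and 9.40 FPKM in RD-ES and at 20.2 and 26.6 FPKM against 31.9 and 35.1 FPKM in SK-N-MC (common log2 change 0.72, limma adjusted p = 0.29).

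The counts that follow stand beside 4.11% lower and 5.67% higher among all genes tested, by the same rule. Of the 10 Ewing sarcoma markers, 3 were lower (EWSR1, STEAP1 and PAX7), and of 6 tested markers of other cell types 1, KRT18, was lower. Of 6 tested stereocilia genes LOXHD1 alone was lower, and 16 of the 22 listed did not reach the filter. Unfolded protein response genes gave 1 higher (XBP1) and 3 lower (PDIA4, CANX and CALR) of 20. Heat shock proteins gave 2 lower of 15 (HSPA1A, whose reads may be split with the near-identical HSPA1B, and HSP90AA1), while HSPA8, a constitutive chaperone, fell in RD-ES and rose in SK-N-MC (log2 difference 1.60, limma adjusted p = 0.0027). Of 20 p53 target genes 3 were higher (15%) and 2 lower (10%), and of 20 NRF2 and glutathione genes GPX4 alone was higher (5%, near the share of all genes).

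**Figure D4:**
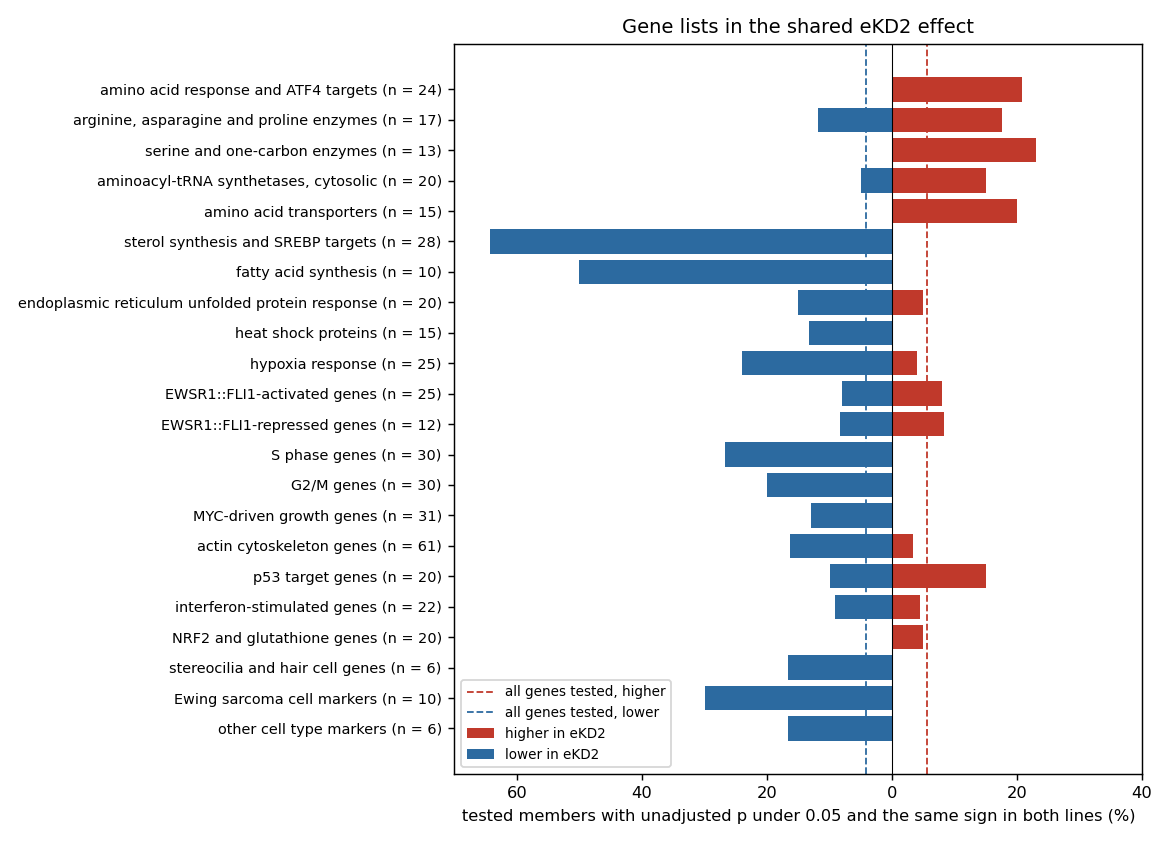
Percent of the tested members of each of the 22 gene lists that were higher (red, right) or lower (blue, left) in eKD2 at an unadjusted p under 0.05 with the same sign in each line, with the share of all tested genes as dashed lines (5.67% and 4.11%). The sterol bar reaches 64.3% and the fatty acid bar 50% on the lower side, and the lists of amino acid supply hold 3 to 5 members each (15% to 23.1%) on the higher side.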

How the data were processed

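Poly-A RNA of RD-ES and SK-N-MC cells was sequenced as single-end reads of 75 bases. Per the labels and the study's methods, the authors aligned the reads to GRCh37 (hg19) with STAR, checked them with FastQC, and derived FPKM with cufflinks and cuffnorm. A single deposited table holds the FPKM of 60332 genes. The authors used DESeq2 on read counts, which were not used here. FPKM values were compared as log2(FPKM + 1), which understates changes of low genes, where the mean FPKM over all libraries reached 1, with limma 3.58.1 in R 4.3.3 (lmFit and eBayes with trend, Benjamini-Hochberg over the 15175 genes). The common effect had line and treatment as terms (5 residual degrees of freedom). Per-line changes and the difference between lines came from a fit of the 4 groups (4 residual degrees of freedom). The additive model counts a difference between the lines as residual spread.

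Gene lengths came from GENCODE on GRCh37, and 628 tested genes were under 200 bases. Lists were described by counts and medians without a set test, beside the same over all genes. Named genes were LOXHD1, ASS1 and TRIB3, called genes, called list members, and, chosen after their values were seen, the 15 higher and 15 lower genes with the smallest p-values. Some genes of these sets count in the totals but are not reported here by name. The members and lists were chosen with earlier results of these data known. Alternatives were another pseudocount, filters, scalings, eBayes settings, models, a length limit, a replicate block and leaving out each library. The p-values of the per-line changes and of the difference between lines measure the spread between duplicates only. Those of the common effect in the additive model measure that spread together with any difference between the lines in the treatment change.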

Additional observations from a re-analysis of the deposited data

Results flagged for a closer look

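The eKD2 change differed between the lines, by the limma test of the line by treatment interaction at an adjusted p under 0.05, for the 9 list genes of at least 200 bases given here, with the log2 difference SK-N-MC minus RD-ES. In 7 genes of the amino acid response it was the more negative in SK-N-MC: CHAC1 (-4.48), ATF3, a stress-induced transcription factor (-3.01), SESN2, a leucine sensor (-2.88), DDIT4, an inhibitor of mTORC1 signalling (-2.40), CTH, which makes cysteine (-2.32), STC2, a secreted glycoprotein (-2.30), and DDIT3, the factor CHOP (-1.68). All 7 rose in RD-ES, while in SK-N-MC their log2 changes were -0.92 to -0.28 and none passed (limma adjusted p from 0.0616 to 0.529). CYP51A1, of sterol synthesis, also had the more negative change in SK-N-MC (-1.10). The calls of CYP51A1 and STC2 were each lost in 10 of 17 alternatives, with adjusted p up to 0.221 and 0.22. HSPA8 went the other way (1.60), from -0.62 in RD-ES to 0.97 in SK-N-MC. These 9 genes are among the 37 that passed this test, and no cause was tested.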

How the results depend on the processing

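The 5 called genes became 3 without the filter on low values, 3 with a replicate block and 40 with 4 groups in place of the additive model, which takes the difference between the lines out of the residual, and 195 genes had an unadjusted p under 0.05 in each line with the same sign. Under 4 groups all 5 main calls were among the 40, with TRIB3, ASNS, ATF5, SARS, MSMO1, HMGCS1 and SCD. Leaving out 1 library gave 3 to 7 called genes. LOXHD1, ZNF10 and MIR3936 stayed called wherever they were tested, ASS1 in 11 and EIF1 in 2 of 18 alternatives (adjusted p from 0.0042 to 0.128 and from 0.0133 to 0.497), and TRIB3 was called in 1 (adjusted p 0.0046 to 0.504). No named gene changed sign. At an unadjusted p under 0.05, 623 lower genes became 552 to 952 and 861 higher genes 628 to 1271 with all libraries kept. Median scaling gave 952 lower and 628 higher. Without 1 library the counts were 389 to 729 lower and 683 to 879 higher. The 37 genes that differed between the lines became 66 without the filter, 14 with a mean of at least 1 FPKM in each line, 18 among genes of at least 200 bases, 7 with a replicate block and 55 to 87 without 1 library. Same-numbered libraries did not deviate together (correlations of 0.056 for RD-ES, 0.0274 for SK-N-MC), so the replicate numbers were not taken as a pairing, and the replicate block is given as a count only. Of 396 list medians under alternatives, 50 moved by more than the spread between replicates. The cause of these moves was not tested, and the depth behind each value is unknown, so no counting error is given.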
